A study of Mus musculus with 6 samples.

Results

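The genes described here encode the machinery that makes ribosomes in the nucleolus: subunits and initiation factors of RNA polymerase I (Pol I), core proteins of the small nucleolar ribonucleoproteins (snoRNPs), assembly factors of the small and the large ribosomal subunit, and proteins that organise the nucleolus. They were taken from a list of 38 symbols, as every probe set whose only platform symbol was on the list. This gave 40 probe sets for 37 genes, of 15153 genes in all, and Noc2l was not measured by such a probe set. For the 3 genes with more than 1 probe set, the brightest on average represented the gene. Affymetrix arrays measured presomitic mesoderm, the unsegmented tail-end tissue of the mouse embryo that forms somites, microdissected at E9.5 (embryonic day 9.5) from embryos of 17 to 19 somites. Each of 6 arrays held RNA pooled from 3 such tissues, with 3 pools per genotype. Control pools are labelled WT and came from Taf10Flox/+ or Taf10flox/flox embryos, so that floxed alleles were present in both groups. Mutant pools were TCre/+;Taf10flox/flox. T-Cre is a recombinase transgene active in early mesoderm, and Taf10 encodes a protein found both in TFIID, the complex that places RNA polymerase II at promoters, and in the coactivator SAGA.

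Ribosome production starts when Pol I, guided to the repeated ribosomal DNA by the factor SL1, by UBF and by TIF-IA, transcribes a long precursor RNA. Box C/D snoRNPs methylate this precursor and box H/ACA snoRNPs convert uridines to pseudouridines, while assembly factors fold, cut and trim it into the RNAs of both subunits. Proliferating embryonic tissues such as presomitic mesoderm make ribosomes at a high rate, and a disturbed nucleolus is known to stabilise p53 through free ribosomal proteins that bind Mdm2.

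Values are log2 intensities, and a change is the mutant mean minus the control mean, given with its standard error (SE) from limma. A gene was called changed at a Benjamini-Hochberg adjusted p under 0.05 over all single-symbol probe sets. The p-values describe the variation among pools, which are biological replicates per the labels. Array medians ran from an intensity of 307.9 to 317.5. Mutant 3 stood apart, with a root mean square distance of 0.184 log2 units from its group mean against 0.0762 to 0.112 on the other arrays. Of 13 presomitic mesoderm markers 12 were measured, and their summed intensity was 24954 to 26067 in controls and 28271 to 30434 in mutants. These markers went both ways, with 5 of 12 negative: the transcription factors Tbx6 and Hes7 rose, and the Wnt agonist Rspo3 fell to 59.8% of control (limma adjusted p = 0.0127). The 8 endothelial and blood markers summed to 9519 to 22631 in controls and to 4110 to 16723 in mutants, lowest in mutant 3, and their part in the results was not tested. In such bulk samples, fewer cells of a type and less RNA per cell cannot be told apart. Xist, the RNA of the inactive X chromosome of females, had a log2 intensity of 6.32 in control 3, against 11.3 to 12.6 elsewhere, so that the sex of the embryos was uneven over the pools.

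Most nucleolar genes read somewhat lower in mutant presomitic mesoderm, and nearly all of these differences were small. Of the 37 genes measured, 1 fell by the adjusted test, Dkc1, the pseudouridine synthase of the box H/ACA particle, to 79.3% of control. No gene rose (0 also at an unadjusted p under 0.05 in limma, where 11.7% of all genes were higher). The share called lower, 2.70%, lay near the 2.96% called lower over all genes, where 2.96% were called higher and 5.92% in either direction. In contrast to the calls, 32 of 37 genes (86.5%) had a negative log2 change, against 40.7% of all genes, and the median change was -0.17 against 0.03 over all genes. At an unadjusted p under 0.05, limma gave 14 lower (37.8%), where 10.9% of all genes were lower. In 23 genes (62.2%) the mutant values all lay below the controls, as in 15.1% of all genes. In 2 genes (5.41%), Polr1d and Utp4, they all lay above, as in 17.2% of all genes. No change reached 0.5 on the log2 scale: they ran from -0.44 for Nop58 to 0.17 for Polr1d. Polr1d stands here by its brighter probe set, which may not read that gene. Its other probe set gave -0.35, with all mutants below the controls.

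The downward shift was present in each mutant pool. The median deviation of the 37 genes from their control mean was -0.12 in mutant 1, -0.12 in mutant 2 and -0.27 in mutant 3, against -0.01 to 0.01 on the control arrays. Over all genes the same medians were 0.01, 0.02 and 0.08. Mutant 3 was the lowest of the mutant pools in 25 of 37 genes and the highest in the other 12. Probe sets of all 37 genes were brighter than the middle of the array, and over 6912 genes of the same range of intensity (log2 8.44 to 12.70) the median change was -0.03. Their medians in mutants 1, 2 and 3 were 0.0016, -0.01 and -0.05, so that for mutants 2 and 3 the sign was opposite to that over all genes. Of those genes, 55.2% were negative, 17.3% were lower at an unadjusted p under 0.05, 4.60% were called lower, and in 24.4% all mutants lay below the controls.

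**Figure D1:**
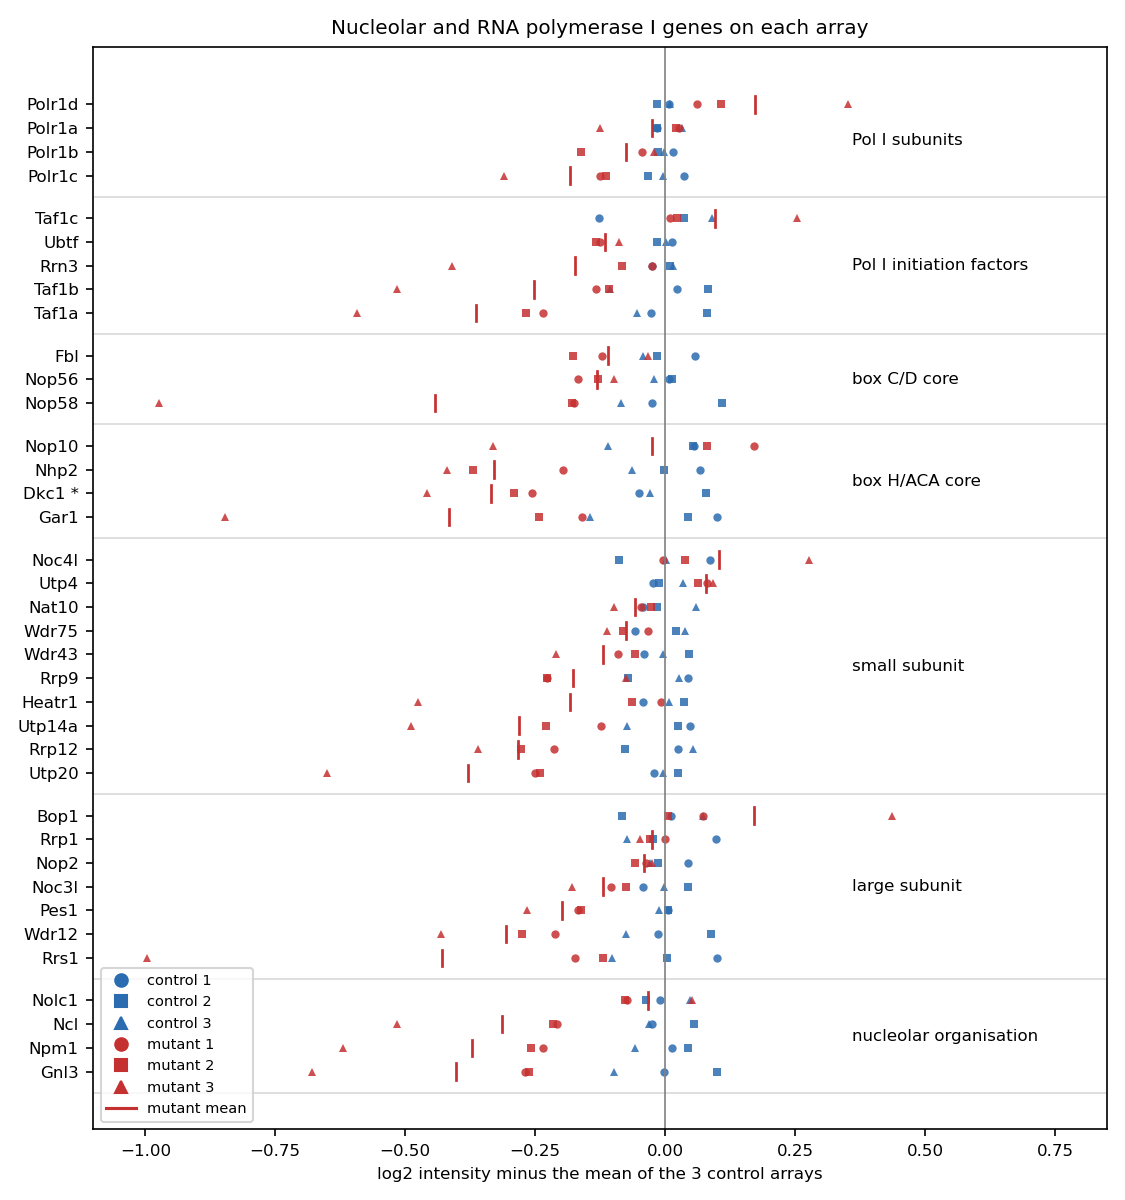
Log2 intensity of the 37 nucleolar and Pol I genes on each array relative to its control mean (x axis), with a row for each gene grouped by role; blue symbols are control arrays, red symbols mutant arrays, the symbol's shape gives the replicate, the red bar is the mutant mean and the star is for Dkc1, the gene called changed. Most red bars lie left of 0, and the red triangles of mutant 3 lie farthest left for Rrs1, Nop58 and Gar1.

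**Figure D2:**
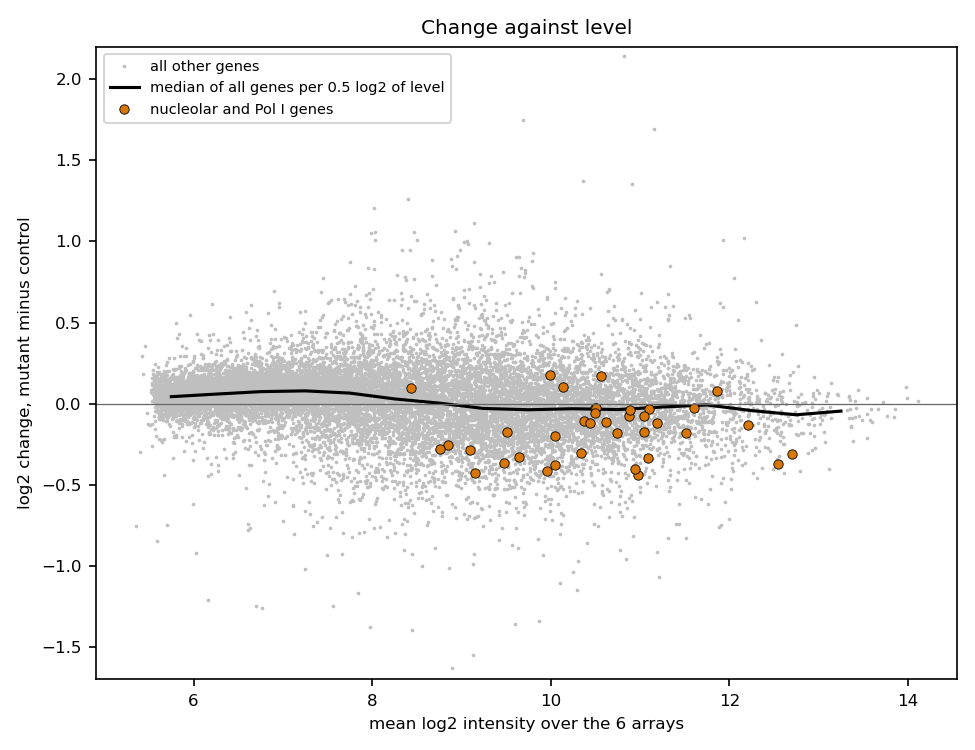
Log2 change, mutant minus control (y axis), against the mean log2 intensity over the 6 arrays (x axis) for all genes (grey), with the median of all genes in steps of 0.5 log2 units (black line) and the nucleolar and Pol I genes (orange). The line runs from 0.08 at an intensity near 7.25 to -0.04 near 9.75, and most orange points lie below it.

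Of the genes for Pol I itself, 0 of 4 passed limma's adjusted test. At an unadjusted p under 0.05, 1 was lower, Polr1c, against 10.9% of all genes. The count takes Polr1d by its brighter probe set. Its other probe set, described below, was lower too (limma unadjusted p = 0.00712). Polr1c encodes the assembly subunit that Pol I shares with RNA polymerase III. Polr1c read 11.64, 11.57 and 11.60 in the controls and 11.48, 11.49 and 11.30 in the mutants. All mutant pools lay below all controls, by 0.18 log2 units on average (change -0.18, SE 0.07, limma adjusted p = 0.194). Polr1a and Polr1b encode the large subunits that form the catalytic centre. For Polr1a the change was -0.03 (95% interval -0.18 to 0.13) and for Polr1b -0.08 (95% interval -0.23 to 0.08). The sign for Polr1a was not stable, at 0.01 after quantile normalization and 0.02 without mutant 3.

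Polr1d, the partner of Polr1c in the shared subcomplex, had probe sets that disagreed in direction. The brighter one (10503911) read 9.92, 9.89 and 9.92 in the controls and 9.97, 10.02 and 10.26 in the mutants. The other (10527559) read 9.58, 9.43 and 9.48 in the controls and 9.30, 9.18 and 8.95 in the mutants. Neither pair of groups overlapped, so the first put the mutants above the controls and the second below. The changes were 0.17 (SE 0.09, limma adjusted p = 0.283) and -0.35 (SE 0.10, limma adjusted p = 0.0792), and without mutant 3 the second passed, at -0.26 (limma adjusted p = 0.0433). Probe sets of this array are numbered largely along the genome: 96.7% of 16284 had at least 10 of their 20 neighbours on the chromosome of their own gene. For the brighter Polr1d probe set 0 of 20 neighbours lay on the chromosome of Polr1d, against 19 of 20 for the other. It is therefore not settled that the brighter probe set reads Polr1d.

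The same check touched 3 others of the 37 genes. The brighter probe sets of Wdr12 (10550098, 0 of 20) and Fbl (10447589, 1 of 20) and the probe set of Taf1a (10598107, 4 of 20) did not have their neighbours on the gene's chromosome, and for Taf1a there was no other. The second probe set of Wdr12 (10355037) and that of Fbl (10551464) had 19 and 20 of 20 there. For Wdr12 and Fbl both probe sets gave changes of the same sign, at -0.31 and -0.45 for Wdr12 and -0.11 and -0.15 for Fbl. With the probe sets on the gene's own chromosome, 33 of 37 genes were negative and 15 were lower at an unadjusted p under 0.05 in limma. Npm1 also appears with the symbol Gm15484 on 3 further probe sets, which were left out.

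**Figure D3:**
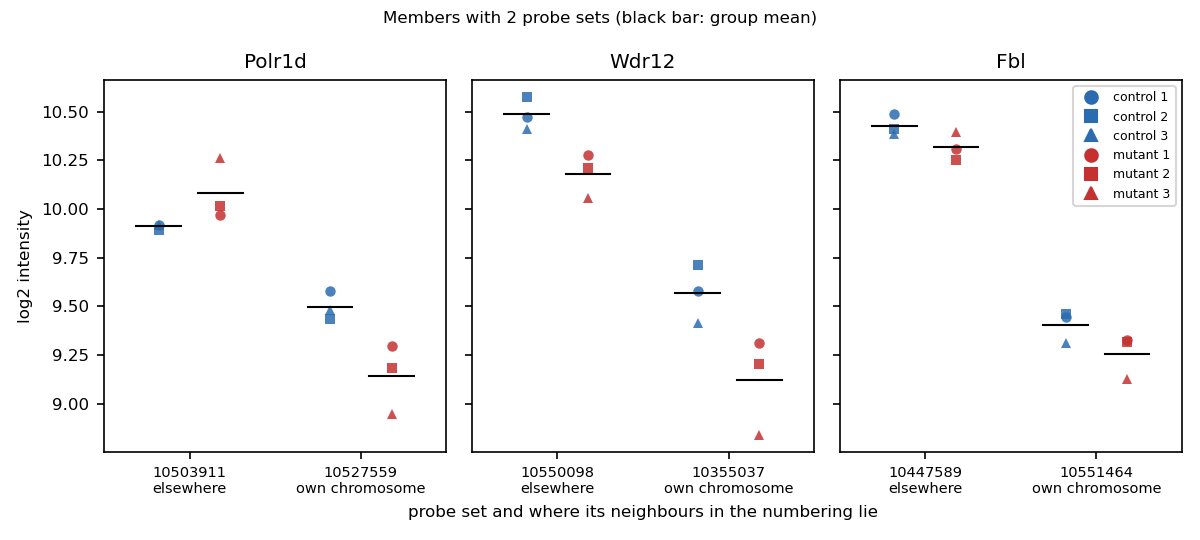
Log2 intensity (y axis) on each control (blue) and mutant (red) array for both probe sets of Polr1d, Wdr12 and Fbl (x axis), with the replicate as the symbol's shape, the group mean as a black bar, and below each probe set whether its neighbours in the numbering lie on the gene's chromosome. For Polr1d the mutant mean lies above the control mean in the first probe set and below it in the second, while for Wdr12 and Fbl it lies below in both.

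Among the factors that bring Pol I to ribosomal DNA, 0 of 5 passed limma's adjusted test and 4 had negative changes. At an unadjusted p under 0.05, 1 was lower, against 10.9% of all genes. Taf1a, Taf1b and Taf1c encode SL1 subunits, and despite their names they are not part of TFIID. Taf1a read 9.63, 9.74 and 9.60 in the controls and 9.42, 9.39 and 9.07 in the mutants. The groups did not overlap, with a change of -0.36 (SE 0.10, limma adjusted p = 0.0838) for a probe set that may read another locus. Without mutant 3 this probe set passed, at -0.25 (limma adjusted p = 0.0331). Taf1b, the SL1 subunit related to TFIIB, read 9.00, 9.06 and 8.87 in the controls and 8.85, 8.87 and 8.46 in the mutants. Its mutants lay below the controls by a narrow margin, at -0.25 (SE 0.12, limma adjusted p = 0.249), and at -0.12 without mutant 3. Ubtf, which encodes the ribosomal DNA-binding factor UBF, gave -0.12 (SE 0.06, limma adjusted p = 0.288). Rrn3, the growth-regulated factor TIF-IA that makes Pol I competent to initiate, gave -0.17 (SE 0.10), and -0.05 without mutant 3. Taf1c had a change of 0.10 (95% interval -0.12 to 0.31) with overlapping groups.

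The box H/ACA core, which guides pseudouridine formation in ribosomal RNA and also holds telomerase RNA, was the group with the called gene. At an unadjusted p under 0.05, 3 of its 4 genes were lower. That compares with 10.9% of all genes and 17.3% of genes in the same intensity range. Dkc1 encodes dyskerin, the catalytic subunit. It read 11.20, 11.33 and 11.22 in the controls (11.25 ± 0.07, SD, n = 3) and 11.00, 10.96 and 10.79 in the mutants (10.92 ± 0.11, SD, n = 3). The groups did not overlap. Dkc1 fell by 0.33 on the log2 scale (SE 0.08, limma adjusted p = 0.0472). An exact permutation test, two-sided, returned p = 0.1, and no smaller value is possible with 3 against 3 arrays. Only without mutant 3 did this call survive the removal of an array (limma adjusted p = 0.0237). Removing control 1, 2 or 3 gave an adjusted p of 0.148, 0.199 or 0.120, and removing mutant 1 or 2 gave 0.0735 or 0.0984, while the change stayed between -0.37 and -0.27. Dkc1 lies on the X chromosome, and with the level of Xist as a covariate its change was -0.35 (limma adjusted p = 0.0882).

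Nhp2, the RNA-binding protein of the same particle, read 9.87, 9.80 and 9.74 in the controls and 9.61, 9.44 and 9.39 in the mutants. All mutants lay below the controls, with a change of -0.33 (SE 0.08, limma adjusted p = 0.0532) just outside the threshold. It passed without mutant 3 (limma adjusted p = 0.0386), after median centring, after quantile normalization and under other settings, 10 of 19 in all. Gar1, a core protein that contacts dyskerin, read 10.27, 10.21 and 10.03 in the controls and 10.01, 9.93 and 9.32 in the mutants. Control 3 and mutant 1 were close together, and mutant 3 lay far below the rest. The change of -0.42 (SE 0.17, limma adjusted p = 0.201) became -0.20 without mutant 3. Nop10, the smallest core protein, had a change of -0.03 (95% interval -0.33 to 0.27) with overlapping groups, and its sign turned without mutant 3 (0.13) and after quantile normalization (0.0074).

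RefSeq promoters (GRCm38.p6, 250 bases before to 50 after an annotated start) were matched by symbol for 33 of the 38 genes. They were searched on both strands for the E-box CACGTG, the site of Myc and related factors that is common in nucleolar genes, and for the TATA box TATAAA, bound by the TBP subunit of TFIID. These do not overlap in sequence. Printed below are Dkc1, the gene that fell, Nhp2, its partner with the next smallest p, Rrn3, the gene with 2 E-boxes, and Utp20, an E-box gene whose mutants all lay below the controls. Capitals mark a match.
Dkc1, chrX:75095604-75095903, plus strand: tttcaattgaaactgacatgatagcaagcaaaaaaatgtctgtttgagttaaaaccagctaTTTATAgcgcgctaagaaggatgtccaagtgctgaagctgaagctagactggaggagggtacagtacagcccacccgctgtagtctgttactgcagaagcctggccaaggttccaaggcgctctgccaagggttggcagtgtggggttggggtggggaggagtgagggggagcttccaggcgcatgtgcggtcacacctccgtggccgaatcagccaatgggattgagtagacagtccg
Nhp2, chr11:51619523-51619822, plus strand: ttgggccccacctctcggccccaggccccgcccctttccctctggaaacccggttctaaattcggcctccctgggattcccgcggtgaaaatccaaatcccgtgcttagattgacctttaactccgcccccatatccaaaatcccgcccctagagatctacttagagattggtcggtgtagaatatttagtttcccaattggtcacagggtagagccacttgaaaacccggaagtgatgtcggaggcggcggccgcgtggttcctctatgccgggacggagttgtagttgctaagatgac
Rrn3, chr16:13780449-13780748, plus strand: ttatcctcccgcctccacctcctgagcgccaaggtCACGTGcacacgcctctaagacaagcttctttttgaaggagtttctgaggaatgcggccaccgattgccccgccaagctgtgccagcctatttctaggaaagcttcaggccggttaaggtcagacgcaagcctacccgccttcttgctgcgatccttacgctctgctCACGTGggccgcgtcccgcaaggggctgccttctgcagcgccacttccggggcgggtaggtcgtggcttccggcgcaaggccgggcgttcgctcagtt
Utp20, chr10:88826765-88827064, minus strand: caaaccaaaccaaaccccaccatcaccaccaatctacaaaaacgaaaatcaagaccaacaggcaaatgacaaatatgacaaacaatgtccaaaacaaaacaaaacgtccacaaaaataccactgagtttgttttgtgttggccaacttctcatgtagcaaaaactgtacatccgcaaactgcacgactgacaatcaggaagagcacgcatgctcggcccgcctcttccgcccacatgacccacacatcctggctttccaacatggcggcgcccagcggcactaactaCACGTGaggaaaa
The Dkc1 window held a TATAAA match on the opposite strand beginning 189 bases before the start, and no E-box. Whether that match acts as a TATA box was not tested. The Nhp2 window held neither motif. In Rrn3 the E-boxes began 215 and 48 bases before the start, and in Utp20 the E-box began 37 bases after it.

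E-boxes were found in 6 of the 43 promoters of these genes (14.0%), against 9.07% of the 15056 promoters of genes measured on the array. Some genes have several promoters. Counted by gene, it was 6 of 33 (18.2%), against 10.7% of 11935 measured genes and 20.2% of 109 other genes of ribosome production. The 6 genes were Nop2, Pes1, Rrn3, Utp20, Utp4 and Wdr43. TATAAA was found in 2 of 43 promoters (4.65%), in Dkc1 and Pes1, against 8.74%, and by gene in 6.06% against 10.6%. In Pes1 the match began 216 bases before the start. These are matches to the sequence only, wherever they lie in the window. The median log2 change was -0.15 for the 6 genes with an E-box (range -0.38 to 0.08) and -0.15 for the 26 measured genes with a promoter but no E-box (range -0.44 to 0.17), and the difference was not tested. Myc itself read a change of 0.03 (95% interval -0.21 to 0.26) and Mycn 0.08 (95% interval -0.12 to 0.28). Of 11 genes of the Myc network, limma called 0, and 1 was at an unadjusted p under 0.05, the Max partner Mga (log2 change -0.25, limma adjusted p = 0.206).

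For the box C/D core, which guides methylation of ribosomal RNA, 0 of 3 genes passed in limma and 0 were at an unadjusted p under 0.05, although all 3 changes were negative. Nop56, a scaffold protein, read 12.29, 12.29 and 12.26 in the controls and 12.11, 12.15 and 12.18 in the mutants. The groups were tight and did not overlap, and the change was -0.13 (SE 0.06, limma adjusted p = 0.239). Its paralogue Nop58 read 11.18, 11.31 and 11.12 in the controls and 11.02, 11.02 and 10.23 in the mutants. Mutants 1 and 2 lay just below the controls and mutant 3 far below. The change was -0.44 (SE 0.20, limma adjusted p = 0.240) with it and -0.18 without it. Fbl encodes fibrillarin, the methyltransferase, and gave -0.11 (SE 0.07) with mutant 3 inside the range of the controls.

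Of 10 genes for assembly of the small subunit, 0 passed in limma's adjusted test and 8 changes were negative (median -0.15). At an unadjusted p under 0.05, 4 were lower. In the same intensity range 17.3% of genes were lower at that p and 55.2% were negative. Rrp12, a maturation and export factor, read 9.26, 9.16 and 9.29 in the controls and 9.02, 8.96 and 8.88 in the mutants. Its groups did not overlap, at -0.28 (SE 0.07, limma adjusted p = 0.0574), and it passed without mutant 3 (-0.25, limma adjusted p = 0.0377). Utp20, a large helical-repeat protein of the processome that cuts the precursor, read 10.22, 10.27 and 10.24 in the controls and 9.99, 10.00 and 9.59 in the mutants. The controls were tight and all mutants lay below them, at -0.38 (SE 0.11, limma adjusted p = 0.0933), or -0.25 without mutant 3 (limma adjusted p = 0.0200).

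Utp14a, an X-linked processome factor that activates a helicase, read 8.95, 8.92 and 8.83 in the controls and 8.78, 8.67 and 8.41 in the mutants. Rrp9, a protein of the U3 snoRNP, read 9.65, 9.53 and 9.63 in the controls and 9.37, 9.38 and 9.53 in the mutants. In both genes the nearest control and mutant values almost touched. Utp14a had a change of -0.28 (SE 0.10, limma adjusted p = 0.146) and -0.18 without mutant 3. Rrp9 had a change of -0.18 (SE 0.07, limma adjusted p = 0.196), and without mutant 3, its highest mutant value, it passed at -0.23 (limma adjusted p = 0.0400). Heatr1, which also promotes Pol I transcription, had a change of -0.18 that shrank to -0.04 without mutant 3. Wdr43 (-0.12), Wdr75 (-0.07) and Nat10, the acetyltransferase of the subunit's RNA (-0.06), had smaller negative changes. Utp4 and Noc4l had positive ones (0.08 and 0.10). None of these 6 was at an unadjusted p under 0.05 in limma.

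For the large subunit, 0 of 7 measured genes passed in limma and 6 changes were negative (median -0.12). At an unadjusted p under 0.05, 2 were lower. In the same intensity range 17.3% of genes were lower at that p and 55.2% were negative. The 3 proteins of the PeBoW complex, which is needed to mature the large subunit's RNA, gave unlike values. Wdr12 read 10.47, 10.58 and 10.41 in the controls and 10.28, 10.21 and 10.06 in the mutants, a change of -0.31 (SE 0.08, limma adjusted p = 0.0692) by its brighter probe set, which passed without mutant 3 (-0.24, limma adjusted p = 0.0466). Its second probe set gave -0.45 (SE 0.13, limma adjusted p = 0.0910), and 0.0588 as its adjusted p without mutant 3. Pes1 read 10.16, 10.16 and 10.14 in the controls and 9.98, 9.99 and 9.89 in the mutants. Controls and mutants formed separate narrow bands, with a change of -0.20 (SE 0.06, limma adjusted p = 0.109). Bop1 read 10.49, 10.39 and 10.55 in the controls and 10.55, 10.48 and 10.91 in the mutants, a change of 0.17 (95% interval -0.10 to 0.44), and 0.04 without mutant 3. Its groups overlapped, and the difference between Bop1 and its partners was not tested.

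Rrs1, which brings the particle holding 5S RNA into the large subunit, read 9.47, 9.37 and 9.27 in the controls and 9.20, 9.25 and 8.37 in the mutants. Mutants 1 and 2 lay at the lower edge of the controls and mutant 3 far below, so that the change of -0.43 (SE 0.21, limma adjusted p = 0.282) was -0.15 without mutant 3. Noc3l, an assembly factor, gave -0.12 (SE 0.06) without overlap. Nop2, a methyltransferase of the large subunit's RNA, and Rrp1 gave -0.04 and -0.03 with overlap, and the value for Rrp1 was 0.01 after quantile normalization.

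Of the genes for proteins that organise the nucleolus, 3 of 4 were lower at an unadjusted p under 0.05 and 0 passed the adjusted test of limma. In the same intensity range 17.3% of genes were lower at that unadjusted p. Npm1 encodes nucleophosmin, which builds the outer nucleolar phase. It read 12.74, 12.77 and 12.67 in the controls and 12.50, 12.47 and 12.11 in the mutants. Ncl encodes nucleolin, which binds the precursor RNA. It read 12.83, 12.91 and 12.82 in the controls and 12.65, 12.64 and 12.34 in the mutants. Gnl3, or nucleostemin, a GTP-binding protein of proliferating cells, read 11.14, 11.24 and 11.04 in the controls and 10.87, 10.88 and 10.46 in the mutants. In each of these genes mutants 1 and 2 agreed closely below the controls and mutant 3 lay lower still. The changes were -0.37 for Npm1 (SE 0.11, limma adjusted p = 0.0889), -0.31 for Ncl (SE 0.09, limma adjusted p = 0.0974) and -0.40 for Gnl3 (SE 0.12, limma adjusted p = 0.0963). Without mutant 3 all 3 passed, at -0.25, -0.21 and -0.27 (limma adjusted p = 0.0264, 0.0430 and 0.0415). Nolc1, a snoRNP chaperone, gave -0.03 (95% interval -0.19 to 0.12).

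Leaving out mutant 3 thus made most changes less negative while more of them passed the test. Without it, 25 of the 32 negative changes were less negative, 2 of them positive (Polr1a and Nop10), and the median was -0.12, yet 10 genes passed in limma: Dkc1, Nhp2, Taf1a, Utp20, Rrp9, Rrp12, Wdr12, Ncl, Npm1 and Gnl3. In that fit 6.43% of all genes were called lower. Without control 1, control 2, control 3, mutant 1 and mutant 2 the number of these genes that passed was 0, 0, 0, 1 and 0, the 1 being Nhp2. Calls were lost over the whole array in these fits, with 0.139%, 0.191%, 1.02%, 1.70% and 1.16% of all genes called lower in the same order. The numbers of these genes lower at an unadjusted p under 0.05 were 10, 11, 12, 16 and 16. Of all genes, 7.16%, 7.93%, 8.63%, 11.1% and 10.3% were lower at that unadjusted threshold in the same fits.

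**Figure D4:**
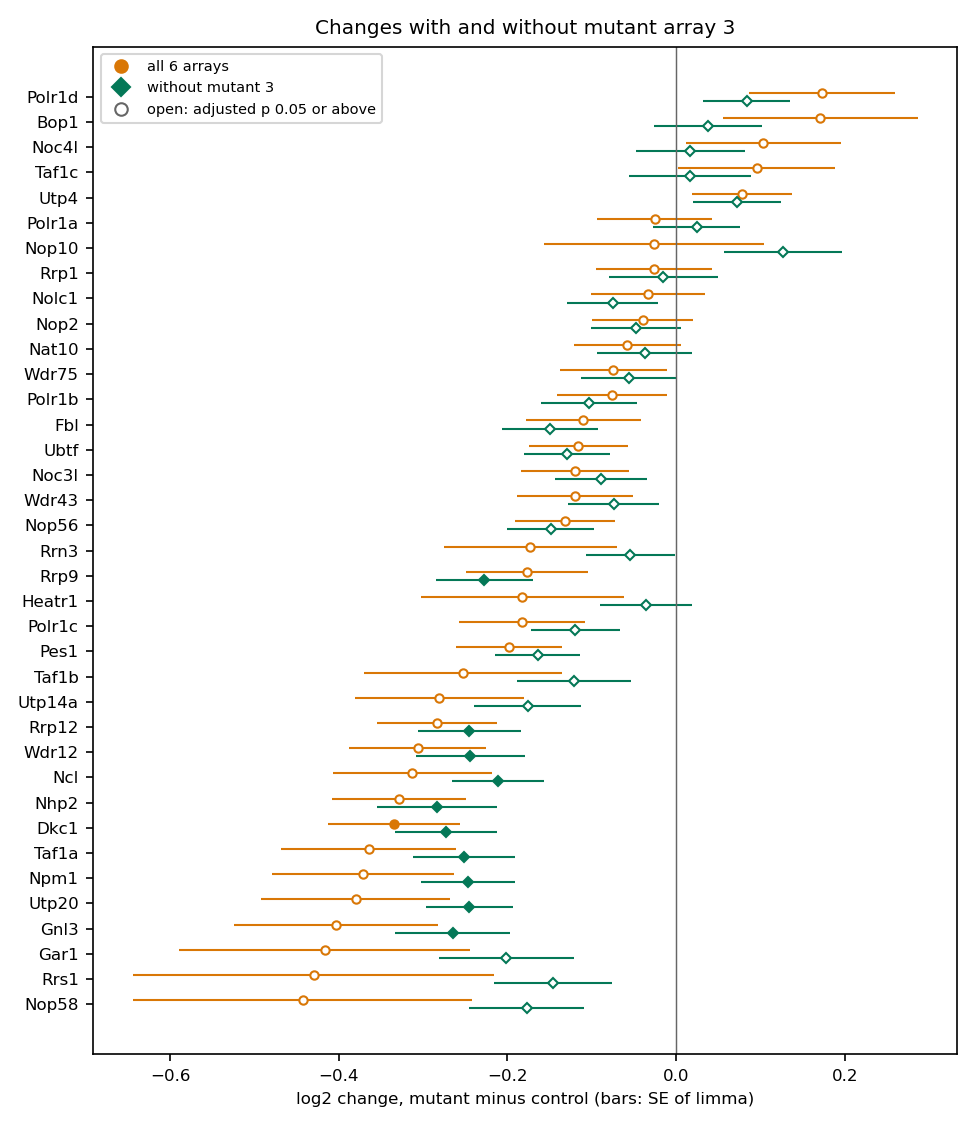
Log2 change, mutant minus control, with its SE (x axis) for each nucleolar and Pol I gene (rows) from all 6 arrays (orange circles) and without mutant 3 (green diamonds); filled symbols have an adjusted p under 0.05. The filled circle is Dkc1, and 10 diamonds are filled, between -0.28 and -0.21.

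Of the other genes of ribosome production, from a list of 145 symbols that holds some current and older names of the same gene, 128 were measured. Among them 4 fell (3.12%, near the 2.96% called lower over all genes), 0 rose, and 124 did not pass. At an unadjusted p under 0.05 limma gave 28 lower (21.9%, against 10.9% of all genes and 17.3% of the genes in the intensity range above) and 1 higher. The median change was -0.11, and 100 of 128 (78.1%) were negative, against 40.7% of all genes. In the intensity range above, 55.2% of genes were negative and their median change was -0.03. Of the 128, Ddx18, Mrto4, Polr2h, Snu13 and Trmt112 were read by a brightest probe set without its neighbours on the gene's chromosome. None of these was called. By role, 1 of 11 other Pol I genes, 0 of 11 other snoRNP genes, 1 of 45 small subunit genes, 2 of 47 large subunit genes and 0 of 14 exosome and trimming genes fell. At an unadjusted p under 0.05 in limma, 1, 1, 10, 11 and 5 genes were lower in the same order of roles, where 10.9% of all genes were lower.

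Rpf1, a large subunit assembly factor, read 11.62, 11.67 and 11.50 in the controls and 11.00, 11.08 and 11.09 in the mutants. With the mutants in a narrow band below the controls, Rpf1 fell to 68.7% of control (log2 -0.54, SE 0.07, limma adjusted p = 0.00845), more than any of the 37 genes. Rpf2, the partner of Rrs1 in handling the particle of 5S RNA, read 9.39, 9.24 and 9.20 in the controls and 8.87, 8.96 and 8.90 in the mutants, and fell by 0.37 on the log2 scale (SE 0.07, limma adjusted p = 0.0309). In neither gene was mutant 3 the lowest pool. Taf1d, a further SL1 subunit, read 12.98, 13.03 and 12.98 in the controls and 12.58, 12.62 and 12.55 in the mutants, and fell to 75.0% of control (log2 -0.41, SE 0.06, limma adjusted p = 0.0119) by its brightest probe set. Taf1d has 6 probe sets, of mean log2 level 9.20 to 12.79, and 5 passed in limma. All 6 changes were negative, from -1.21 to -0.19, so the fall to 75.0% holds for the brightest probe set only. Of the 5, 1 (10471503) did not have its neighbours on the gene's chromosome. Which transcript of the locus each probe set reads was not tested, so the call may not describe the messenger RNA of the SL1 subunit. Ltv1, which acts in the last steps of the small subunit, read 9.77, 9.59 and 9.53 in the controls and 9.14, 9.06 and 9.36 in the mutants. Mutant 3 was here the highest mutant value, below all controls. Ltv1 fell to 73.6% (log2 -0.44, SE 0.10, limma adjusted p = 0.0426).

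These calls also depended on single arrays. Without control 1, the adjusted p was 0.0637 for Rpf1, 0.127 for Rpf2, 0.0691 for Taf1d and 0.172 for Ltv1. Without control 2 it was 0.0647, 0.126, 0.0833 and 0.155 in the same order. Rpf1 and Taf1d passed in limma without each of the other 4 arrays. Rpf2 and Ltv1 passed without mutant 3 (0.0164 and 0.00628) and not without control 3 (0.0653 and 0.0882), mutant 1 (0.0861 and 0.102) or mutant 2 (0.0689 and 0.111). Over the 128 genes, leaving out controls 1, 2 and 3 and mutants 1, 2 and 3 in turn left 0, 0, 2, 2, 2 and 15 that fell, in fits whose shares of all genes called lower (given above) ran from 0.139% to 6.43%.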

How the data were processed

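The file used holds one value table of 18064 probe sets on 6 arrays. The deposited intensity values came from RMA (background correction, normalization between arrays and probe set summary), per the submitters' processing notes. The sources used here do not state its version or any filter. Values were on a linear scale (20.5 to 21070) and were turned into log2 here. The platform table gave 1 symbol to 16311 probe sets, several to 734 and none to 1019. Gene IDs of 16284 matched RefSeq (GRCm38.p6), which changed 0 symbols.

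limma 3.58.1 in R 4.3.3 (lmFit, eBayes, no covariate) was fitted to the single-symbol probe sets. The fit was also run on simulated data. That run set no condition on the share called for changes as small as those of the members. It therefore does not show how often such changes would be called. The members, roles, lists, motifs and alternatives were chosen with earlier results of these data known. By rule, members that were called, members at an unadjusted p under 0.05 and the 2 with the smallest p of each role are given on every array, and of the other pathway genes those called; Bop1, Rrs1 and the Myc genes are named beyond it. Alternatives were a replicate block, median centring, quantile normalization, a level filter, all probe sets, other eBayes forms, array weights, Xist as a covariate, averaged probe sets, another threshold and arrays left out. Trend removal and the choice of probe sets by chromosome were added after seeing the data. Replicate numbers are shared by the groups, but the labels name no pairing, so none was assumed. Deviations of same-numbered arrays had correlations of 0.13, 0.08 and 0.32, and those of differently numbered arrays -0.28 to 0.20. With the replicate block 3.54% of all genes were called lower, against 2.96% without it. Whether the pools were paired was not tested. The number of arrays limits the precision.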

Additional observations from a re-analysis of the deposited data

How the results depend on the processing

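The median change of the members stayed negative in all settings run, from -0.18 after median centring to -0.12 without mutant 3, while the count of members called lower (1 in the fit reported) moved with most of them. That count was 3 with the replicate block (3.54% of all genes called lower), after quantile normalization (3.07%) and after median centring (3.21%). It was also 3 with the filter above the 40th percentile (5.12%) and after removing the trend with level from every array (3.25%). The count was 2 with probe sets averaged (3.25%), and 0 with all probe sets in the fit (2.78%) or Xist as a covariate (1.69%). It was 15 with array weights (11.5% of all genes called lower), 9 at an adjusted p under 0.1 (5.54%) and 9 without control 3 and mutant 3 together (6.62%), so calls rose over all genes too. Leaving out single arrays gave 0 to 10 (0.139% to 6.43% of all genes called lower). The replicate block, the level filter, all probe sets, the other eBayes forms and another threshold leave each change as it was by construction. In them neither a direction nor the median could move. Calls under the replicate block were Dkc1, Nhp2 and Gnl3. Other pathway genes called lower (4) became 8 after median centring (3.21% of all genes called lower) or with the filter (5.12%). With array weights 30 were lower (11.5%) and 3 higher, where 12.3% of all genes were called higher. The number lower was 14 at an adjusted p under 0.1 (5.54%) and 16 without control 3 and mutant 3 (6.62%). It was 0 to 15 with single arrays left out (0.139% to 6.43%). Members higher at an unadjusted p under 0.05 (0) became 1 with array weights, and 0 to 1 with single arrays left out.

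Signs turned for members near 0. Polr1a was at 0.0103 after quantile normalization, 0.0228 with array weights, 0.0402 without control 3 and mutant 3, 0.0171 with the trend removed, and from -0.0516 to 0.0243 with single arrays left out. Nop10 was at 0.0074, 0.0811, 0.0715 and 0.0224 in the same order, and from -0.13 to 0.13. Rrp1 was at 0.0114 after quantile normalization and 0.0162 with the trend removed, and from -0.0625 to 0.0222. With the trend removed Nop2 was at 0.0042 and Nolc1 at 0.0127. Polr1d was at -0.0902 with its probe sets averaged and at -0.35 by the probe set on its own chromosome, a change that comes from which probe set is read. For the rest the cause was not tested.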
